A study of Mus musculus with 4 samples.

Results

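Monocytes, dendritic cells and neutrophils were examined in single-cell RNA sequencing of mouse adipose tissue. The 132 cells, called myeloid cells below, were chosen from UMI counts among 4136 kept barcodes, which had 200 genes or more and no more than 25% of their UMIs from mitochondrial genes. A UMI is a molecular tag that counts 1 captured transcript. A myeloid cell had a UMI sum of at least 3 over Lyz2, Csf3r, Flt3, Cd209a, Itgax and Csf1r and at most 2 UMIs over C1qa, C1qb and C1qc, the C1q genes that mark tissue macrophages. It had no UMI of the T cell genes Cd3e, Cd3d and Cd3g, the B cell gene Cd79a, the NK cell genes Ncr1 and Klrb1c or the stromal genes Pdgfra and Dcn. The levels of these genes are therefore given as a description.

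The 4 libraries held subcutaneous (SC) or visceral intraperitoneal (IP) adipose tissue of WT or KO mice, with 1 library per group. WT mice were Tie2e-cre; TERT+/+; mTmG and KO mice were Tie2e-cre; TERT fl/fl; mTmG. Both genotypes thus carried the Cre recombinase under a Tie2 promoter used for endothelial cells, and the mTmG reporter, which turns from membrane Tomato to membrane GFP where Cre has acted. All mice were 7 months old males that had received high-fat diet for 5 months. The number of mice per library is not given in the sources used here, and the labels name both cells and nuclei. With 1 library per group, the spread between mice is unknown, and no p-value is given. A ratio or level is therefore a description of these libraries.

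Neutrophils are short-lived cells that carry granules of antimicrobial proteins and enter tissue from blood through receptors such as Cxcr2. Classical monocytes also enter from blood, through Ccr2, and can become macrophages or antigen-presenting cells, while non-classical monocytes patrol vessel walls. Dendritic cells take up antigen and show it to T cells on MHC class II. Type 1 cells are known for Xcr1 and Clec9a, type 2 cells for Cd209a and Clec10a, and plasmacytoid cells for Siglech and interferon production. Mature dendritic cells carry Ccr7 and move to lymph nodes.

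Myeloid cells were 18 of 971 kept cells in WT SC, a share of 1.85% (95% Clopper-Pearson interval 1.10 to 2.91). In KO SC they were 19 of 1969 (0.965%, 0.582 to 1.503). Among IP cells they were 51 of 675 in the WT library (7.56%, 5.68 to 9.81) and 44 of 521 in the KO library (8.45%, 6.20 to 11.2). The share was higher in IP than in SC by 2.03 on the log2 scale in WT (95% interval 1.23 to 2.89) and by 3.13 in KO (2.32 to 3.99). Between KO and WT, the log2 ratio was -0.94 in SC (-1.95 to 0.07) and 0.16 in IP (-0.46 to 0.77), and both intervals held 0. In SC it was -1.21 (-2.30 to -0.14) with the copied barcodes described below left out, -1.17 (-2.28 to -0.08) with at least 500 genes per cell and -1.21 (-2.36 to -0.08) with a rule sum of at least 6, and these 3 intervals left out 0. All intervals here cover counting error only.

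Depth differed between the groups. The median UMI count of a myeloid cell was 11810.5 (WT) and 3647 (KO) in SC, and 14656 (WT) and 5903.5 (KO) in IP, so both KO groups were the shallower of their depot. The mix of cells entered these medians. In the neutrophil-like cells described below they were 3966 (WT) and 3647 (KO) in SC, and 5478 (WT) and 4572 (KO) in IP. In the other myeloid cells they were 13304 (WT) and 8469 (KO) in SC, and 15173 (WT) and 10417 (KO) in IP. The library totals ran from 10015201 UMIs in KO IP to 15533961 in KO SC. KO SC and WT IP shared 93 cell barcodes, and in 92 of them the KO SC copy held 1.503 to 1.99% of the UMIs of the WT IP barcode. Of the 19 myeloid cells of KO SC, 4 were such copies, and 15 remained without them, with a median of 4917 UMIs. Haemoglobin, from red cells, stood at 1445 CPM in the myeloid cells of KO SC and at 263 or below in the other libraries, where CPM is the number of UMIs scaled to a group total of 1000000. Levels of the 4 libraries are given below in the order WT SC, KO SC, WT IP, KO IP unless another order is stated. Tert, the targeted gene, had 0 UMIs in the myeloid cells of every library, so the labels could not be checked in them.

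At the edge of the rule, 7 myeloid cells had the smallest sum of 3 UMIs, and 11 cells with a sum of 2 fell outside. At the C1q limit, 4 had 2 C1q UMIs and 3 cells with 3 C1q UMIs fell outside. No C1q UMI was seen in 124 of 132 cells. Lyz2, the lysozyme of granulocytes and macrophages, had a UMI in 114 cells. Csf1r, the receptor for macrophage colony-stimulating factor, had one in 82 cells and Csf3r, the receptor for granulocyte colony-stimulating factor, in 74. Itgax, an integrin of dendritic cells and macrophages, had one in 38 cells, Flt3, a growth factor receptor of dendritic cells, in 36, and the lectin Cd209a in 28.

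Among 786 B cells, which should lack these genes, 3 had a Lyz2 UMI (0.382%) and 4 an S100a9 UMI (0.509%). S100a9 was seen in 26.5% of the myeloid cells and Lyz2 in 86.4%. After each cell was thinned to 1500 UMIs the myeloid values were 26.8% and 70.1%. No Csf3r or Cd209a UMI was seen in the B cells, which allows a share of up to 0.382%. The summed level of 10 T cell genes ran from 0 CPM in WT IP to 15.2 CPM in WT SC, and that of 10 B cell genes from 15.2 CPM in WT SC to 139 CPM in KO SC. That of 10 endothelial genes ran from 37.2 CPM in KO IP to 511 CPM in KO SC, with 7 or 8 of the 10 at 0 in each library. That of 12 macrophage genes, of which Lyz2 is also in the rule, ran from 4605 CPM in KO SC to 10736 CPM in WT IP, with 3 or 6 genes at 0. That of 10 mast cell or basophil genes ran from 57.0 CPM in WT IP to 1124 CPM in KO SC, with 7 or 8 at 0, and 1 of them, Hdc, is also a neutrophil marker. The mast cell or basophil sum was 3457 CPM in the neutrophil-like cells described below, with 9 of 10 genes at 0. In the other myeloid cells it was 42.2 CPM. The endothelial sum was highest in cluster 5 described below, at 314 CPM. Whether these levels came from free RNA or from the myeloid cells themselves was not tested.

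Clustering of the 132 cells gave 5 clusters. A cluster was called by a cell type only where its markers and its leading genes allowed it, and the genes that drew the clusters are not results. Cluster 1 held 34 cells with 10 of 11 neutrophil markers and was called neutrophil-like. Cluster 2 held 32 cells and stayed unnamed, with Ccr2, Vcan, F13a1 and Fn1 of the 10 classical monocyte markers and Mrc1, Trem2, Fcgr1 and Apoe of the 12 macrophage markers. Cluster 3 held 24 cells, with 9 of 10 non-classical and 6 of 10 classical monocyte markers, and is given by its number. Summed over the cluster, the classical markers stood at 6460 CPM and the non-classical ones at 2759, and at a finer clustering its cells fell into 15 classical monocyte-like and 9 non-classical monocyte-like cells. Cluster 4 held 24 cells and stayed unnamed. It carried 9 of 10 mature dendritic cell markers and 6 of 10 of type 2 dendritic cells, Cd209a among its leading genes. Cluster 5, with 18 cells, carried 9 of 10 plasmacytoid and 6 of 10 type 1 dendritic cell markers and was called plasmacytoid dendritic cell-like.

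**Figure D1:**
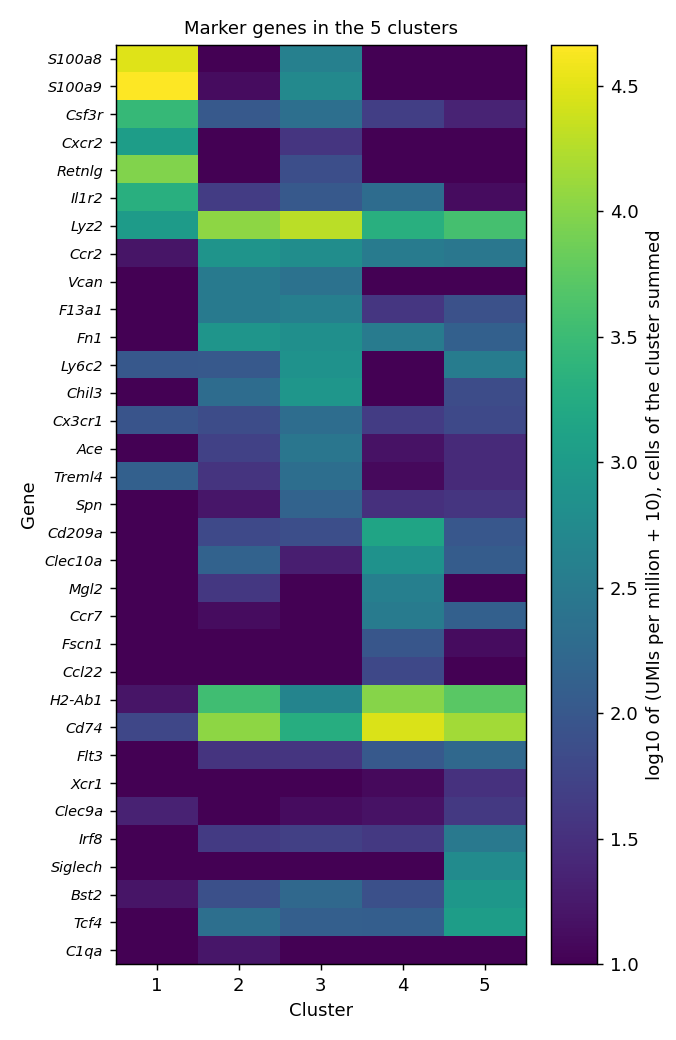
Level of marker genes (vertical axis) in the 5 clusters (horizontal axis), as log10 of CPM plus 10 in the summed cells of each cluster. S100a8 and S100a9 stand highest in cluster 1, Lyz2 in cluster 3, Cd209a and Clec10a in cluster 4 and Siglech in cluster 5.

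Lyz2 was highest in cluster 3 at 19037 CPM, followed by 10905 in cluster 2, and was 1014 in cluster 1. Ly6c2, a surface protein of classical monocytes, was at 724 CPM in cluster 3 and 96.7 in cluster 2. Ace, which marks non-classical monocytes, was at 268 CPM in cluster 3 and at 41.9 or below elsewhere. Clusters 2 and 3 therefore both held monocyte transcripts, and cluster 3 held those of both monocyte kinds. Ccr2, the receptor by which classical monocytes leave the marrow, was at 777 CPM in cluster 2, 613 in cluster 3 and 6.18 in cluster 1.

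Cd209a reached 1369 CPM in cluster 4 and 87.8 or below in the others. Of the 28 cells with a Cd209a UMI, 18 lay in cluster 4. Clec10a, a lectin of type 2 dendritic cells, followed the same order at the top, with 725 CPM in cluster 4 and 132 in cluster 2. At least 5 UMIs of Ccr7 were found in 8 cells, 7 of them in cluster 4, with 0 (WT) and 2 (KO) cells in SC and 5 (WT) and 1 (KO) in IP.

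The name of cluster 5 rests on few cells. Siglech was seen in 5 of its 18 cells, at 17 to 48 UMIs each, and in no other myeloid cell. KO SC held 2 of them and each other library 1. An Xcr1 or Clec9a UMI was found in 9 myeloid cells, 4 of them in cluster 5. Cells with and without Siglech were thus joined in cluster 5, and at a finer clustering the 5 Siglech cells stood alone. Its other 13 cells lay in an unnamed finer cluster of 19 cells. That cluster was closest to type 1 dendritic cells, with 6 of their 10 markers. At that finer setting, 23 cells formed a neutrophil-like cluster and 11 further cells with neutrophil markers stood apart without a name.

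Neutrophil-like cells were 4 of 18 myeloid cells in WT SC (22.2%, 6.41 to 47.6) and 9 of 19 in KO SC (47.4%, 24.4 to 71.1). Among IP cells they were 2 of 51 in the WT library (3.92%, 0.478 to 13.5) and 19 of 44 in the KO library (43.2%, 28.3 to 59.0). The share was higher in KO than in WT by 3.46 in IP on the log2 scale (1.41 to 6.61). In SC the log2 ratio was 1.09 (-0.75 to 3.24), an interval that held 0. Of all kept cells the shares were 0.412% (WT) and 0.457% (KO) in SC, and 0.296% (WT) and 3.65% (KO) in IP, so that on this base only KO IP stood apart. The log2 ratio between KO and WT was then 3.62 in IP (1.57 to 6.77) and 0.15 in SC (-1.69 to 2.30). A count of marker UMIs per cell in place of the clusters gave 35 neutrophils, with 5 (WT) and 9 (KO) in SC and 2 (WT) and 19 (KO) in IP. These counts are a description, since neutrophil genes drew the cluster and each group was 1 library.

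**Figure D2:**
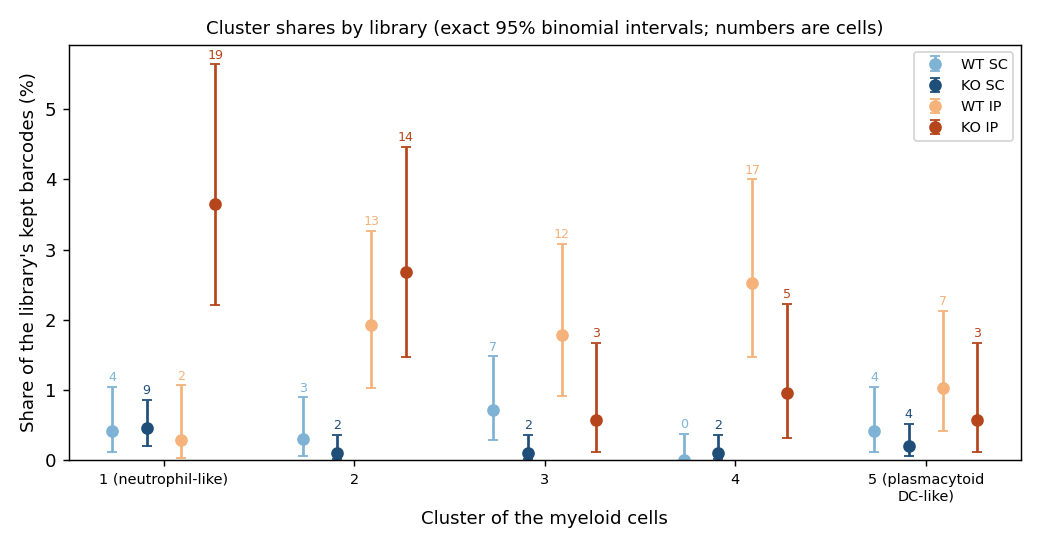
Share of each library's kept cells (percent) in each of the 5 clusters of myeloid cells, with exact 95% binomial intervals for counting error and the number of cells above each. Neutrophil-like cells make up 3.65% of the kept cells in KO IP and 0.457% or less in the other libraries.

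The other clusters were spread unevenly as well. Cluster 4 had 0 of 18 cells in WT SC, which allows a share of up to 16.7%, and 2 in KO SC. In IP it had 17 (WT) and 5 (KO). Cluster 2 had 3, 2, 13 and 14 cells in the order given above. Cluster 3 had 7, 2, 12 and 3 cells, and cluster 5 had 4, 4, 7 and 3. The mix of cell types in a summed level therefore differed between the libraries, which touches every comparison of summed cells below.

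Precursor genes were at 0 in the neutrophil-like cells. Mpo, Elane, Prtn3 and Ctsg, granule enzymes made by precursors, had 0 UMIs in all 34 cells. The later granule genes Camp, Ltf and Ngp were seen in 1, 2 and 4 cells. Cxcr2, the chemokine receptor of circulating neutrophils, was at 815, 1113, 1734 and 1072 CPM in the neutrophil-like cells. Il1r2, a decoy receptor for interleukin-1, was at 2381, 1738, 3286 and 1991 CPM. Mitochondrial transcripts were 0.0209 to 0.481% of the UMIs of a neutrophil-like cell and 0.331 to 21.3% of those of the other myeloid cells. The median depth was 4476 UMIs in cluster 1 and 10158 or above in the other clusters.

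S100a8 and S100a9 encode the subunits of calprotectin, the most abundant cytosolic protein of neutrophils. They are neighbours on chromosome 3 of GRCm38, S100a8 at 90668978 to 90670035 on the plus strand (ENSMUSG00000056054) and S100a9 at 90692632 to 90695721 on the minus strand (ENSMUSG00000056071). The bases just upstream of their starts are shown because both genes were high in the same libraries. They come from RefSeq on GRCm38.p6, chr3:90668821-90668977 on the plus strand for S100a8 and chr3:90695722-90695971 on the minus strand for S100a9. Capitals mark TTNCNNAA on either strand, letters that C/EBP factors of the granulocyte lineage can bind.
S100a8: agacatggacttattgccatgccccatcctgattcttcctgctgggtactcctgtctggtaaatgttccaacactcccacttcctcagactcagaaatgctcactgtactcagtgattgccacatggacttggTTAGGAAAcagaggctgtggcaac
S100a9: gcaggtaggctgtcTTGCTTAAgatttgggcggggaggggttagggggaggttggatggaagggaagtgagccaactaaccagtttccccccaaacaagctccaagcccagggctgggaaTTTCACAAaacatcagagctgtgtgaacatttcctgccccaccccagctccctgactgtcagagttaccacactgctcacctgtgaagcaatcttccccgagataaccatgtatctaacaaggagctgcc
The S100a8 stretch held 1 match and the S100a9 stretch 2. Of 32851 RefSeq promoters, 27.1% held a match in a stretch of the first length and 36.8% in one of the second, so a match is common.

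Over all myeloid cells S100a8 was at 1926 CPM (WT) and 9663 (KO) in SC, and at 223 (WT) and 8584 (KO) in IP. S100a9 was at 3802, 15158, 350 and 11984 CPM. Both genes were thus high in the 2 KO libraries and lowest in WT IP. The log2 ratio of S100a8 between KO and WT was 2.33 in SC (2.16 to 2.50) and 5.26 in IP (5.04 to 5.50), and that of S100a9 was 1.99 (1.87 to 2.12) and 5.10 (4.92 to 5.28). In KO IP 1 cell held 54.6% of the S100a8 UMIs, and without the top cell of each library KO IP stood at 4070 CPM and WT IP at 2.67.

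The libraries lay closer together within the neutrophil-like cells. In these cells alone S100a8 was at 16670, 35954, 15243 and 33015 CPM, and S100a9 at 37288, 56402, 24096 and 46082. The values rest on 4, 9, 2 and 19 cells. In KO IP 1 cell held 54.6% of the S100a8 UMIs of these cells and 43.1% of those of S100a9. With the top cell of each library left out, S100a8 was at 13637, 32562, 222 and 17883 CPM and S100a9 at 27940, 48988, 0 and 31273, where WT IP had 1 cell left. KO SC then stood highest, and KO IP was near WT SC. The share of a cell's UMIs from both genes together was spread widely, from 2.66 to 7.81% (WT) and 3.22 to 15.2% (KO) in SC, and from 0.0222 to 6.67% (WT) and 0.153 to 23.5% (KO) in IP. The groups overlapped cell by cell, and the medians were 5.11%, 5.90%, 3.35% and 5.21%.

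**Figure D3:**
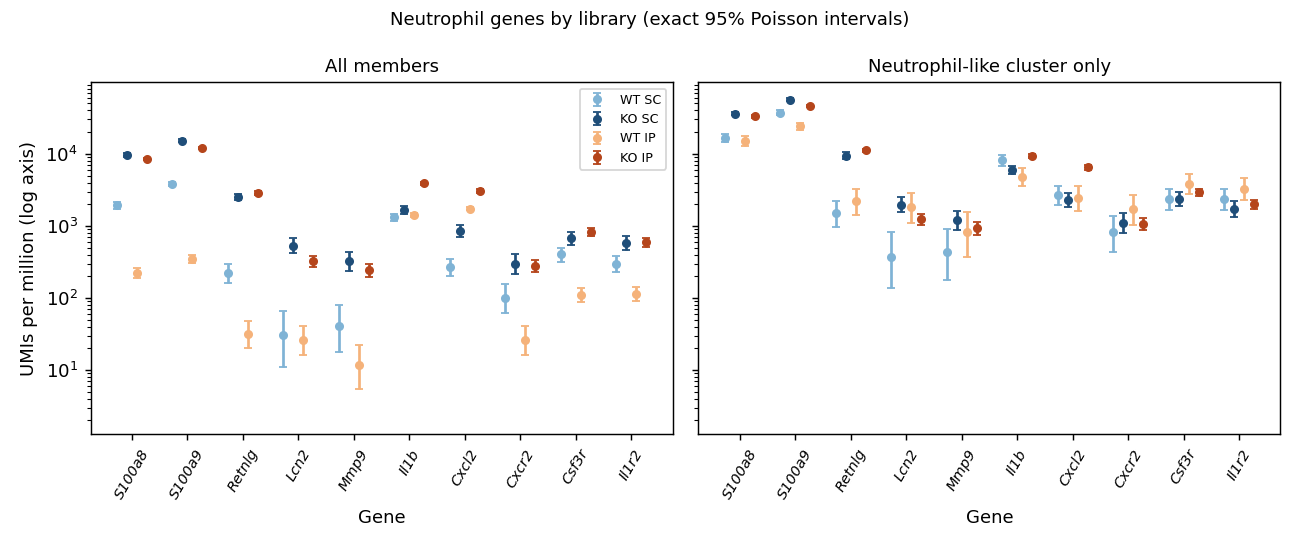
Level of 10 genes of neutrophils (CPM, log axis) in each library over all myeloid cells (left) and over the neutrophil-like cells alone (right), with exact 95% Poisson intervals. On the left S100a8 spans 223 CPM in WT IP to 9663 in KO SC, and on the right 15243 to 35954.

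Retnlg, a secreted resistin-like protein of neutrophils, was at 1504, 9396, 2191 and 11138 CPM in the neutrophil-like cells. It was seen in 3 of 4, 9 of 9, 1 of 2 and 15 of 19 of them, and 1 cell held 75.4% of its UMIs in KO IP. Il1b, the inflammatory cytokine interleukin-1 beta, was at 8210, 5974, 4838 and 9239 CPM. Cxcl2, a ligand of Cxcr2, was at 2695, 2308, 2464 and 6472 CPM, so KO IP stood above the other 3 libraries. Slc7a11, a cystine transporter, was at 4011, 6110, 548 and 5788 CPM, and Acod1, which makes itaconate, at 2444, 2200, 639 and 3001. Both were lowest in WT IP, where only 2 cells stood behind the value.

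KO IP and KO SC had the most neutrophil-like cells, 19 and 9. Cxcl2 was higher in KO IP than in KO SC by 1.48 on the log2 scale (1.16 to 1.83), and Cd14, the co-receptor for lipopolysaccharide, by 1.27 (0.88 to 1.70). Nlrp3, an inflammasome sensor, was higher by 1.41 (0.59 to 2.47), Ccl4, a chemokine that draws monocytes and T cells, by 2.54 (1.28 to 4.61) and Il1b by 0.63 (0.41 to 0.85). S100a8 and S100a9 differed by -0.12 and -0.29. The list of granule and secreted proteins had a median of -0.12 over 11 genes, of which 0 were past 2-fold. Over all 1201 genes compared between these cells, 10.9% were at least 2-fold higher and 6.99% at least 2-fold lower. Of the inflammatory cytokine list 2 of 5 genes compared were at least 2-fold higher, Nlrp3 and Il1rn, with a median of 0.67. Of the chemokine ligands it was 2 of 4, Cxcl2 and Ccl4, with a median of 0.90.

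Genes were next compared between KO and WT over all myeloid cells. A gene was compared when both libraries together held at least 20 of its UMIs. In SC 12.6% of 3056 genes were at least 2-fold higher in KO and 9.72% at least 2-fold lower. In IP 11.6% of 5876 genes were higher and 9.21% lower. Of the granule and secreted protein list, 8 of 11 genes compared were at least 2-fold higher in KO IP, with a median log2 ratio of 3.58, and 6 of 11 in KO SC, with a median of 1.99. Without the neutrophil-like cells, 7.41% of 5604 genes were higher and 6.05% lower in IP, and 0 of 4 granule genes were higher there, with a median of -0.30. In SC the median without them was -2.81 over 7 genes. Of these, 5 were at least 2-fold lower, S100a8, S100a9, Mpo, Anxa1 and Slpi, against 11.5% of all genes compared. A single WT SC cell of cluster 3 was the one with at least 10 UMIs of S100a8 and S100a9. Another single WT SC cell, in cluster 5, was the one with at least 5 UMIs over Mpo, Elane, Prtn3 and Ctsg.

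The 8 genes that stood highest in KO against WT in both depots were Lcn2, Retnlg, Mmp9, Wfdc21, Ankrd33b, S100a8, Slc7a11 and S100a9. From 82.3 to 100% of their UMIs lay in neutrophil-like cells. Lcn2, an iron-chelating granule protein, was higher in KO by 4.02 in SC and 3.58 in IP on the log2 scale, and Mmp9, the granule gelatinase, by 2.94 and 4.27. In IP single cells held 55.7% of the Lcn2 UMIs in KO, 100% of the 20 in WT, and 88.9% of the Mmp9 UMIs in WT. Without the top cell of each library, Lcn2 was at 5.18 CPM (WT) and 359 (KO) in SC. In IP it was then at 0 (WT) and 150 (KO). The 8 that stood lowest were Crip1, Stap1, S100a10, Grk5, Agpat4, Vim, Cst3 and Pou2f2, with 0 to 5.4% of their UMIs in neutrophil-like cells. In SC S100a10 turned to 1.19 with each cell weighted equally, and without the neutrophil-like cells Retnlg, S100a8 and S100a9 turned to -4.51, -6.98 and -7.41. Of 1160 genes that could enter this ranking, 768 had the same sign in both depots (66.2%).

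Vim, the intermediate filament vimentin, was at 3400 CPM (WT) and 336 (KO) in SC and at 3835 (WT) and 1563 (KO) in IP. Cst3, the protease inhibitor cystatin C, was at 4468, 1022, 3189 and 1407 CPM, and Crip1, a small LIM protein, at 1510, 555, 3995 and 1338. All 3 were lower in KO in each depot. Without the neutrophil-like cells the log2 ratio in IP was -0.90 for Vim, -0.90 for Cst3 and -1.17 for Crip1, and in SC it was -3.27, -1.94 and -1.11. A single cell held 45.4% of the Vim UMIs and 51.8% of the Cst3 UMIs in WT SC. With the copied barcodes left out, Vim was at -3.43 and Cst3 at -2.15 in SC.

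MHC class II genes present antigen to helper T cells. Cd74, the invariant chain that guides MHC class II, was at 6440 CPM (WT) and 4269 (KO) in SC and at 18316 (WT) and 10017 (KO) in IP. H2-Ab1, a beta chain (ENSMUSG00000073421, chromosome 17, 34257689 to 34269419, plus strand), was at 2714, 1569, 6445 and 3161 CPM. Both genes were higher in IP than in SC and lower in KO than in WT of each depot. In IP 2 of 14 list genes were at least 2-fold lower in KO, against 9.21% of all genes compared. Of the list genes 0 were at least 2-fold higher, and the median was -0.53. Without the neutrophil-like cells 0 of 14 were past 2-fold, against 13.5% of all genes compared, and the median was -0.36. H2-Ab1 then had a log2 ratio of -0.61 (-0.71 to -0.52) in place of -1.03 (-1.12 to -0.94).

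The list's share of a cell's UMIs had a median of 0.0498% in cluster 1, 1.85% in cluster 2, 0.293% in cluster 3, 6.62% in cluster 4 and 3.27% in cluster 5. In cluster 2 the median cell was at 2.76% in the WT IP library and 1.05% in that of KO IP. In cluster 4 it was at 6.61% over 17 cells of WT IP and 7.73% over 5 cells of KO IP, the opposite order.

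**Figure D4:**
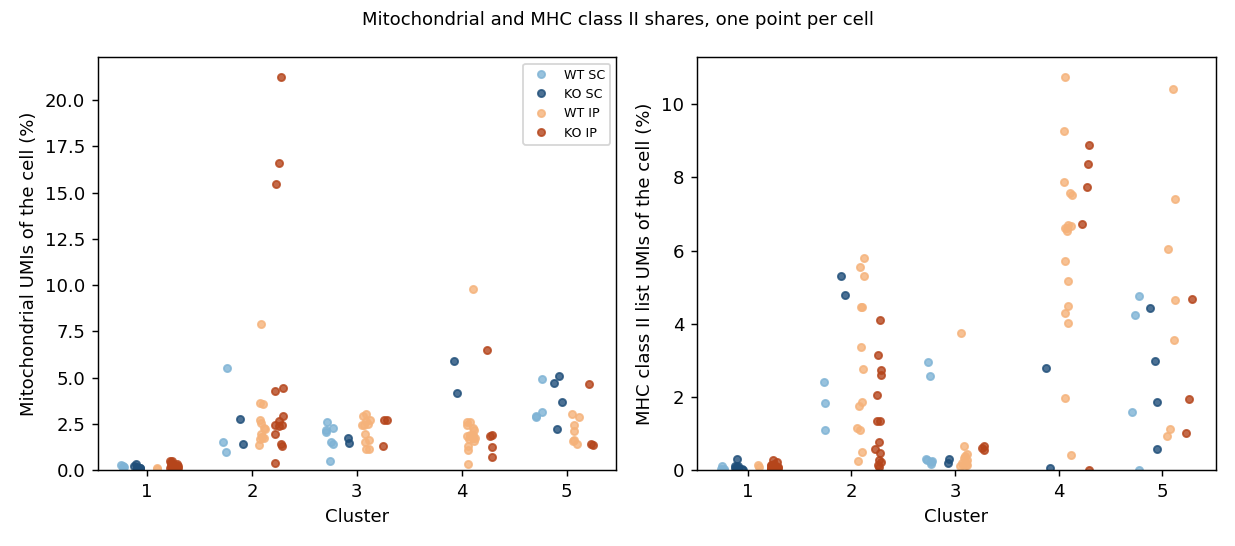
Share of a cell's UMIs (percent) from mitochondrial genes (left) and from the MHC class II list (right) by cluster, 1 point per cell, coloured by library. Cluster 1 stays at or under 0.481% on the left and 0.297% on the right, and 3 cells of KO IP in cluster 2 lie above 15% on the left.

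Cluster 2 was the single cluster with at least 10 cells in both libraries of a depot, 14 in KO IP and 13 in WT IP. Of 2574 genes, 12.2% were at least 2-fold higher in KO and 7.5% lower. Of 10 MHC class II genes, 3 were at least 2-fold lower in KO, H2-Ab1 (-1.35), Cd74 (-1.03) and Ciita (-2.22), the master regulator of the class, and the list's median was -0.81. Abca1, which exports cholesterol, was higher by 1.96 and was seen in 4 cells of WT IP and 8 of KO IP. Hmox1, which degrades haem, had 6 UMIs in 4 cells of WT IP and 117 UMIs in 11 cells of KO IP. Lpl, the lipoprotein lipase, was higher by 2.90, but its 49 KO UMIs came from 1 cell. Mitochondrial UMIs ran from 1.35 to 7.93% in the WT IP cells and from 0.381 to 21.3% in the KO IP cells, and their part in these values was not tested.

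Inflammatory cytokines had a median log2 ratio of 1.21 between KO and WT in IP, with 6 of 11 genes at least 2-fold higher and 0 lower. Of all genes compared in IP, 11.6% were higher and 9.21% lower. Over all myeloid cells Il1b was at 1311 CPM (WT) and 1679 (KO) in SC and at 1414 (WT) and 3912 (KO) in IP. Its ratio in IP was 1.47 (1.35 to 1.58), and 0.58 (0.43 to 0.73) without the neutrophil-like cells. Ptgs2, the inducible cyclooxygenase, had a ratio of 2.47 in IP and 0.80 without those cells. The list's median without them was 0.65, with 2 of 10 genes, Il6 and Vegfa, at least 2-fold higher and 1, Il18, at least 2-fold lower. Of all genes compared without those cells, 7.41% were higher and 6.05% lower. In cluster 2 alone the median was -0.17, with 0 of 6 genes higher and 1, Tnfsf9, lower.

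Chemokines moved in both directions in IP, 4 of 12 higher and 3 lower, against 11.6% and 9.21% of all genes compared. Ccl4 was at 117 CPM (WT) and 51.1 (KO) in SC and at 27.8 (WT) and 403 (KO) in IP, and was seen in 16 cells of KO IP. Its ratio between KO and WT was 3.83 in IP and 3.37 without the neutrophil-like cells. Cxcl1, a ligand of Cxcr2, had 134 UMIs in 9 cells of WT IP and 1 UMI in KO IP, and 1 cell held 48.5% of the former.

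Interferon-stimulated genes had a median of 1.06 in IP, with 6 of 11 genes at least 2-fold higher in KO, against 11.6% of all genes. Without the neutrophil-like cells the list's median was 0.58, with 3 of 8 genes higher, against 7.41% of all genes compared without them. In cluster 2 the median was 0.18 and in cluster 4 it was 0.39, with 0 of 3 genes past 2-fold in each. Slfn4, an interferon-induced gene of myeloid cells, was at 0, 272, 0 and 735 CPM in the neutrophil-like cells, and was seen in 15 of 19 cells of KO IP.

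Proliferation genes were lower in KO IP, with 5 of 6 at least 2-fold lower, against 9.21% of all genes compared. The list's median was -1.68, or -1.66 without the neutrophil-like cells. Its UMIs came from few cells. Stmn1, a microtubule protein of dividing cells, had 19, 1, 87 and 2 UMIs, and 1 cell held 73.6% of those in WT IP. At least 5 UMIs over Mki67, Top2a and Stmn1 were found in 6 myeloid cells, of which WT IP held 4 and KO IP 0.

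**Figure D5:**
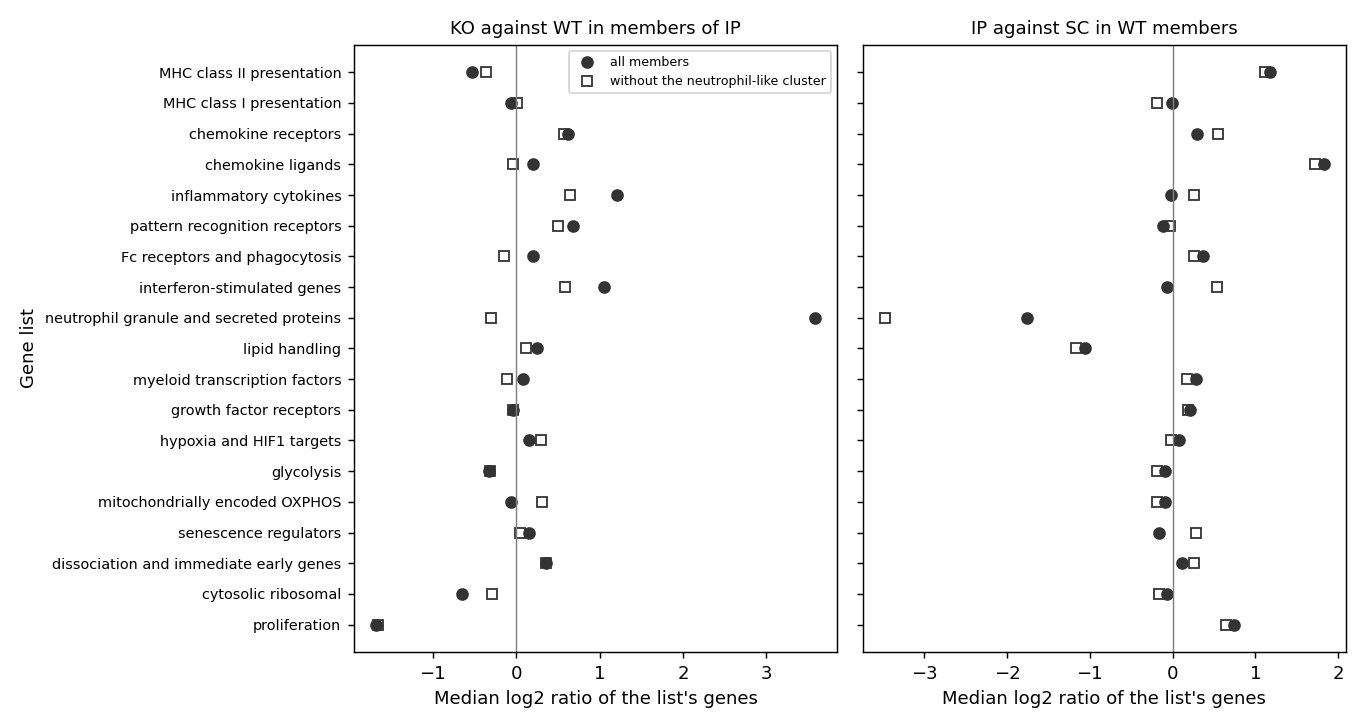
Median log2 ratio of the genes of each list (horizontal axis) between KO and WT in IP (left) and between IP and SC in WT (right), over all myeloid cells (circles) and without the neutrophil-like cells (squares). On the left the granule list moves from 3.58 to -0.30 and the cytokine list from 1.21 to 0.65.

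The lists not named so far had medians between KO and WT in IP from -0.65 for cytosolic ribosomal genes to 0.68 for pattern recognition receptors. Without the neutrophil-like cells these medians were -0.29 and 0.50, against 0.07 over all genes compared. Mitochondrially encoded genes had a median of -0.06 in IP. Without those cells it was 0.31, with 13 of 13 genes above 0. In clusters 2 and 4 of IP it was 0.37 and -0.21. In SC it was 0.24, and 0.57 without those cells, with 12 of 12 above 0. Hypoxia and HIF1 targets had medians of 0.15 in IP and -0.33 in SC.

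Depots were compared within each genotype. In WT 8.19% of 5484 genes were at least 2-fold higher in IP than in SC and 10.2% lower, and in KO 11.8% of 3944 genes were higher and 10.3% lower. MHC class II genes were higher in IP in both genotypes, 10 of 14 past 2-fold in WT with a median of 1.18, and 7 of 10 in KO with a median of 1.19. H2-Aa, an alpha chain, was higher by 1.40 in WT and 1.15 in KO, and Cd74 by 1.51 and 1.23. Chemokine ligands had medians of 1.82 in WT and 1.03 in KO. Lipid handling genes had a median of -1.06 in WT, with 8 of 15 at least 2-fold lower and 3 higher in IP. In KO it was 0.41, with 2 of 14 lower and 4 higher, Lpl, Apoe, Abca1 and Lgals3. With each cell weighted equally, Lpl turned to -1.41 in KO.

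Genes that stood highest in IP against SC in both genotypes included Clec10a, higher by 4.56 in WT and 2.88 in KO, and Mrc1, the mannose receptor, higher by 2.76 and 2.70. With each cell weighted equally Mrc1 turned to -0.77 in WT and -1.05 in KO, and Clec10a was at 4.96 and 0.86. Clec10a was at 10.2 CPM (WT) and 43.8 (KO) in SC and at 298 (WT) and 348 (KO) in IP. Cd209a, a gene of the rule and so a description, was at 45.7, 7.30, 562 and 464 CPM and came from 1, 1, 18 and 8 cells. Hspa1a, a heat shock protein, was higher by 3.04 (2.07 to 4.47) and 3.60 (2.02 to 6.99), from 7 UMIs (WT) and 2 (KO) in SC. In WT IP 1 cell held 40.7% of its UMIs. It belongs to the list of dissociation and immediate early genes. Of that list 4 of 19 genes were at least 2-fold higher in IP in WT and 8 of 19 in KO, against 8.19% and 11.8% of all genes. The part of tissue dissociation was not tested. Siglech stood lower in IP, at -2.26 in WT and -3.85 in KO, from the 5 plasmacytoid cells alone. Of 1700 genes that could enter this ranking, 978 had the same sign in both genotypes (57.5%).

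Macrophages, taken as cells with at least 3 C1q UMIs and the same exclusions, are the cells most like the myeloid cells. They numbered 0 (WT) and 3 (KO) in SC and 42 (WT) and 7 (KO) in IP, so values are given for IP alone and with no test. Lipid handling genes summed to 3912 CPM in the myeloid cells and 10471 in the macrophages of WT IP, a log2 difference of -1.42, and to 4045 and 12256 in KO IP, a difference of -1.60. MHC class II genes summed to 40897 and 40479 CPM in WT IP, a difference of 0.01, and to 24183 and 35181 in KO IP, a difference of -0.54. With the median over cells these were -0.18 and -3.99, where 19 of the 44 myeloid cells of KO IP were neutrophil-like. Without the neutrophil-like cells the summed MHC class II difference was 0.04 in WT IP. In KO IP it was -0.12, from 32421 CPM in the remaining myeloid cells against 35181 in the macrophages.

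The mTmG reporter was read from transcripts of its GFP. A UMI of the GFP coding sequence was seen in 11 of 18 myeloid cells of WT SC (61.1%), and 7 of 19 of KO SC (36.8%). In IP it was seen in 29 of 51 in the WT library (56.9%, 42.2 to 70.7) and in 12 of 44 in the KO library (27.3%, 14.96 to 42.8). After thinning to 1500 UMIs the SC shares were 58.8% (WT) and 26.7% (KO), and in IP 27 of 51 (WT) and 11 of 44 (KO) cells had a UMI. The other kept cells had 54.7%, 35.7%, 47.8% and 25.4%, and the intervals of both IP libraries held the value of their other cells. Outside the neutrophil-like cluster the share without thinning was 28 of 49 in WT IP (57.1%, 42.2 to 71.2). In KO IP it was 3 of 25 (12.0%, 2.5 to 31.2). In SC it was 10 of 14 in the WT library (71.4%, 41.9 to 91.6). In KO SC it was 6 of 10 (interval 26.2 to 87.8%), so the SC intervals overlapped. Within the neutrophil-like cluster it was 1 of 4 (WT) and 1 of 9 (KO) in SC. There it was 1 of 2 (WT) and 9 of 19 (KO) in IP. Whether free RNA gave part of these UMIs was not tested.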

How the data were processed

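Single-cell RNA sequencing libraries had been made from adipose tissue with 10x Genomics Chromium 3' reagents, 1 for each of 4 groups. Raw UMI counts for each gene and barcode had been deposited, and per the file headers Cell Ranger 7.0.0 made them. The submitters' processing notes name STAR 2.6 and mm10. Doublet removal and the use of intronic reads are not given in the sources used here. The authors' cell annotation was not used here.

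The members and the gene lists were chosen with earlier results of these data known. UMIs of the members were summed per library and scaled to CPM of the members' total. A gene whose UMIs summed to 20 or more over a pair of libraries was compared as a log2 ratio after 0.5 UMI was added, with an exact conditional binomial 95% interval. Poisson and Clopper-Pearson intervals were used for levels and shares. Counts of 0 were taken to allow up to 3 counts. Members were clustered with 2000 variable genes, 20 principal components, 15 neighbours and Leiden resolution 1 in scanpy 1.11.5. Scrublet, at an expected rate of 5%, called 0.556% of the kept cells doublets and 0 members, and none was removed. Named genes were markers, list genes and the 8 largest rises and falls shared by both depots or both genotypes, among genes with at least 50 UMIs in each comparison. Hmox1, Slfn4 and Acod1 fell outside this choice and were named after seeing the data, Acod1 being a leading gene of cluster 1. The statistics were tested on simulated counts, drawn as Poisson counts from the summed profile of the IP members. These counts held no spread between cells, so how the intervals cover under such spread was not tested. Gene identifiers were matched to GENCODE M21 for coordinates (32158 of 32290 matched).

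A minimum of 20 members per library had been set, and it was lowered to 15 after seeing the data, since the SC libraries held 18 and 19. No subset had 20 cells in both libraries of a depot, so 10 was used. Cluster 4, with 5 cells in KO IP and 17 in WT IP, fell below it, and its values are given beside those of cluster 2. The planned test against macrophages over 4 libraries could not be run, because SC held 0 and 3 of them. Further tools were pandas 2.3.3, numpy 2.4.6, matplotlib 3.10.9, scipy 1.17.1, igraph 0.11.9 and anndata 0.12.19 under Python 3.11.15.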

Additional observations from a re-analysis of the deposited data

How the results depend on the processing

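No paired analysis was possible because each group was 1 library. The number of genes at least 2-fold apart between KO and WT in SC was 681. It was 83 with at least 100 UMIs per gene, 5905 with at least 1 UMI and 1044 with each cell weighted equally. In IP it was 1222, against 282 and 5338 with those UMI minimums, 754 without the neutrophil-like cells and 687 with clusters weighted equally. Between IP and SC it was 1006 in WT, against 177, 4277, 609 with the named clusters only and 361 with clusters weighted equally. In KO it was 872, against 129, 4751, 499 and 215. A minimum on UMIs changes how many genes are compared; for the other settings the cause was not tested.

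The share of myeloid cells between IP and SC in WT moved from 2.03 to 2.997 when cells were thinned to 1500 UMIs. Against macrophages, the MHC class II difference in WT IP moved from 0.01 to -0.037 with at least 10 C1q UMIs and to -0.18 with the median over cells, and in KO IP from -0.54 to -3.99 with that median. The lipid handling difference in WT IP moved to -1.58 and -0.96 under the same settings, and in KO IP to -1.09 with the median.

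Without the neutrophil-like cells, the ratio between KO and WT in SC turned to -4.51 for Retnlg, -6.98 for S100a8 and -7.41 for S100a9. With each cell weighted equally, S100a10 turned to 1.19 in SC, and between IP and SC Mrc1 turned to -0.77 in WT and -1.05 in KO and Lpl to -1.41 in KO. Of the other values for single named genes under the alternatives, 786 stayed within their spread and 83 moved. Leaving out the copied barcodes, the neutrophil-like cells or the top cell within those cells, the minimum of 15, the comparison at 10 cells and the IP macrophage values were chosen after seeing the data. No cluster held 5 cells in both SC libraries, so clusters could not be weighted equally there. Genes with under 20 UMIs and shares in the 18 and 19 SC cells are limited by depth and number of cells.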

Other observations

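Lineage factors and sensors also varied over the clusters, as levels of summed cells with no test. Irf8, a factor that type 1 and plasmacytoid dendritic cells need, was at 290 CPM in cluster 5 and at 40.2 or below elsewhere. Irf4 and Zbtb46, factors of conventional dendritic cells, were at 100.3 and 201 CPM in cluster 4 and at 43.9 or below elsewhere. Cebpb, a factor of granulocytes and monocytes, was at 5047 CPM in cluster 1 and 344 in cluster 4. Clec4d, a lectin that senses mycobacterial glycolipid, was at 2567 CPM in cluster 1 and 238 or below elsewhere. Cybb, the catalytic subunit of the phagocyte oxidase, was at 1173 CPM in cluster 3 and 55.7 in cluster 1. No UMI of Il12b, a cytokine subunit of activated dendritic cells, was seen in any of the 132 cells.

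A UMI of the Tdtomato sequence was seen in 1 (WT) and 3 (KO) myeloid cells of SC and in 7 (WT) and 7 (KO) of IP, fewer than had a GFP UMI in each library.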
